A study of Mus musculus with 12 samples.

Results

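Integrins are the receptors by which cells hold on to the extracellular matrix. Each is a pair of 1 alpha and 1 beta chain, in which the alpha chain largely sets the ligand and the beta chain connects, through talin and kindlin, to the actin cytoskeleton. In the heart they sit at the costameres of cardiomyocytes, where they bind laminin of the basement membrane and carry force, and on fibroblasts, where they bind fibronectin and collagen. The 10 integrin genes described here, out of 18079 genes measured, were chosen by name and found by their NCBI Gene identifiers: the laminin receptor chains Itga7 and Itga6, the fibronectin and vitronectin receptor chains Itga5, Itgav and Itga8, the collagen receptor chains Itga1 and Itga11, Itga9, whose ligands include tenascin C and the fibronectin EIIIA segment, and the beta chains Itgb1 and Itgb5.

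Left ventricular muscle of 12 C57BL/6 mice was studied in 4 groups of 3 mice. They are named DMSO+Sham and DMSO+AB for the solvent and Hispidulin+Sham and Hispidulin+AB for the drug. AB is aortic banding, a surgical narrowing of the aorta that loads the left ventricle with pressure, and sham surgery was the control. By the labels, surgery was done at 8 weeks of age and all hearts were taken 4 weeks later, at 12 weeks. The methods name the substrain C57BL/6J and give a range of ages at surgery that begins at this age. The hispidulin groups received this plant flavonoid at 20 mg/kg/day by intraperitoneal injection, from 1 day before the operation until harvest, and the DMSO groups received the solvent. The labels name no transgene or deletion, and each mouse gave 1 library.

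The values are FPKM, fragments scaled to transcript length and library size, from polyadenylated RNA read as single 50-base reads. They summed to between 535235 and 567027 per mouse. The number of reads behind them was not known. Errors come from the spread between mice, in which read sampling and differences between the animals are not told apart. Differences are on the log2(FPKM + 1) scale from limma, with p-values adjusted by the Benjamini-Hochberg method over the 11664 genes that reached an FPKM of 1 in 3 or more mice, and a gene was called at an adjusted p under 0.05. Of the 10 integrins, 8 passed that filter, and Itga8 and Itga11 did not. The 5 cardiomyocyte markers summed to between 24240 and 38310 FPKM and the 5 fibroblast markers to between 311 and 610 FPKM, with none at 0 in any mouse. In this bulk RNA, fewer cells of a type and less RNA per cell cannot be told apart, and the cell that made a given integrin transcript was not measured.

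Some libraries stood apart. DMSO+Sham mouse 3 had 18.2 FPKM of Itgam, the alpha chain of a leukocyte integrin, against at most 3.41 in any other mouse, 8.77 of its partner Itgb2 against at most 3.41, and 2741 of cardiac actin Actc1 against at least 7909. DMSO+Sham mouse 2 had the highest Itga6. Hispidulin+Sham mouse 3, DMSO+AB mouse 2 and Hispidulin+AB mouse 3 had raised atrial markers, with 333, 67.5 and 42.3 FPKM of the atrial light chain Myl7 against at most 15.0 in the other mice. The calls made after AB in the DMSO arm are given with and without these mice.

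For orientation, the 250 bases upstream of the RefSeq start site (GRCm38.p6) are shown for the integrin that was called after AB, Itga9 (chr9:118711442-118711691, plus strand), for Itga5 (chr15:103366792-103367041, minus strand), which had the second largest difference among the integrins tested, and for the beta chains Itgb1 (chr8:128685404-128685653, plus strand) and Itgb5 (chr16:33829415-33829664, plus strand). Capitals mark matches, on either strand, to a GC box (GGGCGG) or to the TEAD motif (CATTCC), and an AP-1 motif (TGAGTCA) was searched too.
Itga9: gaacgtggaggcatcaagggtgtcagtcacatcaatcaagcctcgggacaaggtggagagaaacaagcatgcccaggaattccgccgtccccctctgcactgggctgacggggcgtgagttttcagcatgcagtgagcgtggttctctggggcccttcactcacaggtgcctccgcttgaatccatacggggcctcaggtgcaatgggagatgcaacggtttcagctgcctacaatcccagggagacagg
Itga5: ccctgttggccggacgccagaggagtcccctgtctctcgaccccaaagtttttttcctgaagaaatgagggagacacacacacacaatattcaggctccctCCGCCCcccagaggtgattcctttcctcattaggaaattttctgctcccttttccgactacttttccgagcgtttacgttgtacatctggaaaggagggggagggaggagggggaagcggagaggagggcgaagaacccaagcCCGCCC
Itgb1: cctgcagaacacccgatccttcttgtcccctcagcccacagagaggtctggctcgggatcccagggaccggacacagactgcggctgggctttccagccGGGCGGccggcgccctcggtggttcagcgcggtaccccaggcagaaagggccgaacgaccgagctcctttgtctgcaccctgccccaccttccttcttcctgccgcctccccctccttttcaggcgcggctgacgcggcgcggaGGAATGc
Itgb5: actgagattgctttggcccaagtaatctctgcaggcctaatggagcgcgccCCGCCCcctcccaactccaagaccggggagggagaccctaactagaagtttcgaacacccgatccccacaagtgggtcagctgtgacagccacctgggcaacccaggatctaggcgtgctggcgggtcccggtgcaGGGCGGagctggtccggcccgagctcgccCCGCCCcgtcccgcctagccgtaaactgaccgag
The GC box occurred 3 times upstream of Itgb5, 2 times upstream of Itga5 and 1 time upstream of Itgb1, and 32.7% of all 32851 windows of this length held it. Itgb1 also held 1 TEAD match, which 12.6% of all windows held. The AP-1 letters, found in 4.46% of windows, were in none of the 8 integrin windows in the table, and Itga9, Itga1, Itga8, Itga11 and Itgav held none of the motifs. A match is a string of letters and not a measured binding site.

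The integrins differed widely in level in the ventricle. In the DMSO+Sham group Itgb1, the common beta chain, was the most abundant of the 10 at 102 ± 10.9 FPKM (SD, n = 3), followed by Itgb5, the partner of Itgav, at 49.7 ± 12.4 and Itga7 at 49.3 ± 3.34. Itga5 followed at 25.8 ± 8.44, Itga6 at 11.6 ± 6.09 and Itga9 at 10.9 ± 4.41. Itga1 (4.08 ± 0.71) and Itgav (3.15 ± 0.36) were low, and Itga8 (0.60 ± 0.31) and Itga11 (0.39 ± 0.34) were below 1. The values of neighbours in this order overlapped between mice for Itgb5 and Itga7, for Itga6 and Itga9, and for Itga8 and Itga11, and were separate elsewhere. In the DMSO+AB group Itgb1 still had the highest mean (107 ± 23.3), and Itga5 (46.8 ± 16.3) lay between Itgb5 (55.5 ± 18.3) and Itga7 (40.7 ± 6.18), with overlapping values between those neighbours.

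**Figure D1:**
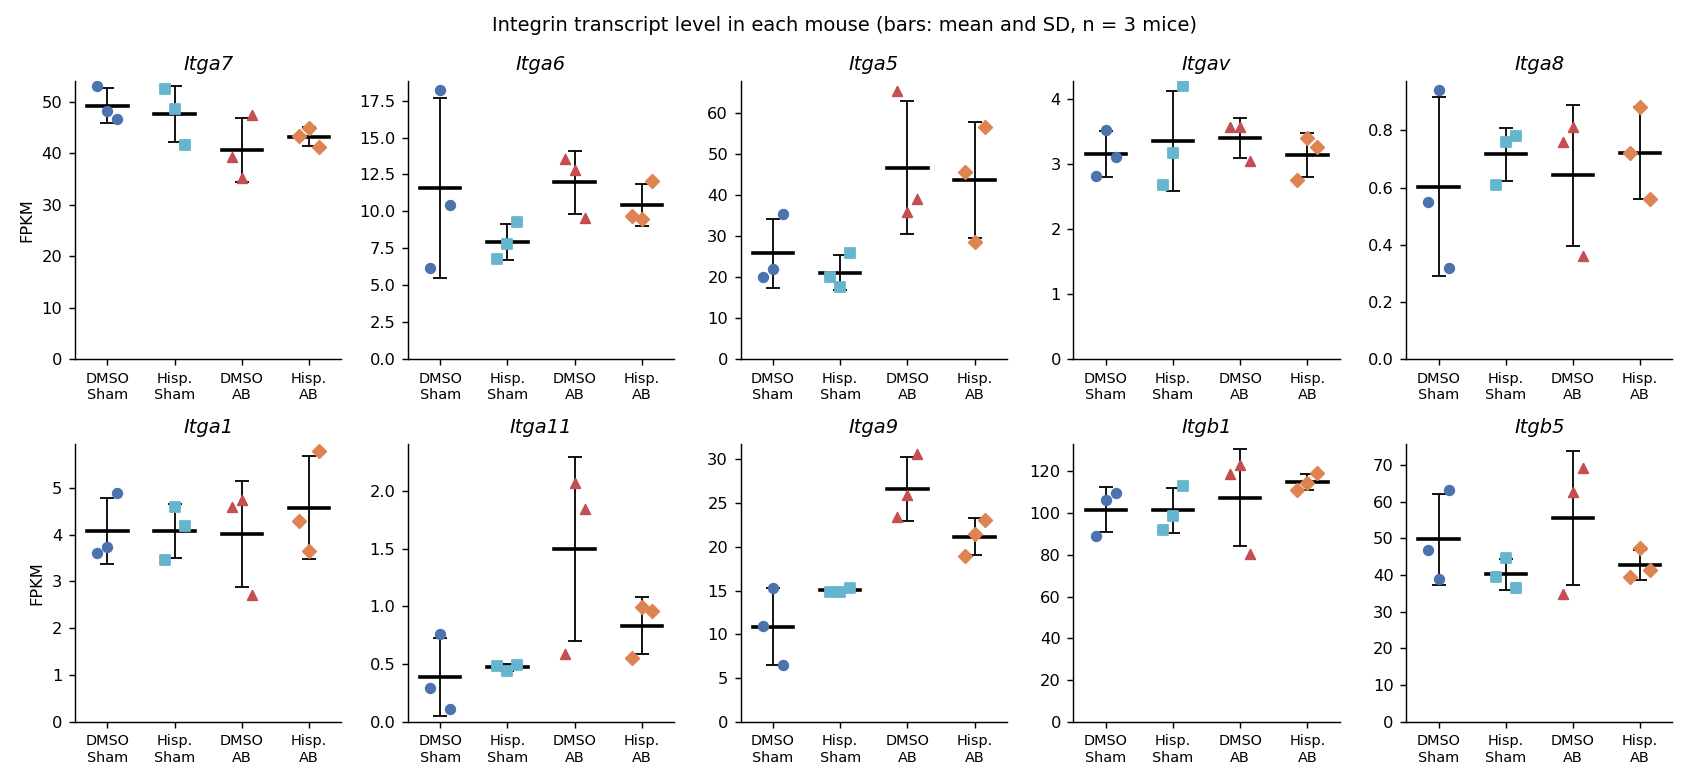
FPKM (vertical axes, linear, starting at 0) of the 10 integrins in each of the 12 mice, by group, with 1 point per mouse and bars for the mean and SD of 3 mice. The 3 DMSO+AB points of Itga9 (23.4 to 30.6) lie above all DMSO+Sham points (6.44 to 15.3), while the Itgb1 groups overlap.

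The first question was what pressure overload did to these transcripts, from DMSO+AB against DMSO+Sham. One integrin of the 8 tested was called, against 5.21% of all genes tested (608 of 11664, of which 292 were higher and 316 lower). This was Itga9, which rose. Itga9 pairs with the beta chain encoded by Itgb1. It read 10.98, 15.3 and 6.44 FPKM in the DMSO+Sham mice and 23.4, 25.9 and 30.6 FPKM in the DMSO+AB mice. Every banded mouse was above every sham mouse of this arm. The difference was 1.28 ± 0.22 (SE) on the log2(FPKM + 1) scale, a fold of 2.43 (95% interval 1.74 to 3.38, adjusted p = 0.0111 by limma). Without DMSO+Sham mouse 3, which had the lowest Itga9, the difference was 0.98 (adjusted p = 0.0089), and it was 1.54 (adjusted p = 0.00225) without DMSO+Sham mouse 2. Without the mice with raised atrial markers it was 1.29 and the call was lost (adjusted p = 0.126), and it was also lost in a fit to the 6 libraries of this comparison alone (1.28, adjusted p = 0.128). The animal numbers in the labels fall into separate series, whose meaning is not stated. With the series in the model the difference was 1.38 (adjusted p = 0.0216), and it was 0.96 within the first series (1 mouse against 1) and 1.78 within the second (2 against 1), with 1 sham mouse in neither. Over all alternatives the adjusted p ran from 0.00225 to 0.128.

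Itga5, the alpha chain of the classic fibronectin receptor, was the next in size but was not called. The DMSO+Sham mice had 19.9, 22.0 and 35.5 FPKM and the DMSO+AB mice 65.5, 35.8 and 39.0 FPKM. The groups did not overlap, although the highest sham mouse, mouse 3, lay just below the lowest banded mouse. The difference was 0.83 ± 0.29 (SE, adjusted p = 0.132 by limma, unadjusted p = 0.0154), and with 1 mouse left out it ran from 0.56 without DMSO+AB mouse 1 (adjusted p = 0.278) to 1.07 without DMSO+Sham mouse 3 (adjusted p = 0.063). With the number series in the model it was 0.64 (adjusted p = 0.325). Groups without overlap were found for 2 of the 8 tested integrins, Itga9 and Itga5, against 17.9% of all genes tested. Itgav, the alpha chain that binds vitronectin and latent TGF-beta, read 2.81, 3.52 and 3.11 FPKM in DMSO+Sham and 3.57, 3.57 and 3.04 FPKM in DMSO+AB, with overlapping groups and a difference of 0.08 ± 0.14 (adjusted p = 0.773). Itga8, a nephronectin receptor chain, stayed under 1 FPKM in all 12 mice (0.32 to 0.94).

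Itga7, the main laminin-binding alpha chain of adult muscle, read 53.0, 48.2 and 46.6 FPKM in the DMSO+Sham mice. In the DMSO+AB mice it was 39.3, 35.3 and 47.4 FPKM. Mice 1 and 2 of the banded group were below all sham mice, and mouse 3 was between them. The difference was -0.28 ± 0.12 (SE) and was not called (adjusted p = 0.218, unadjusted p = 0.0399 by limma). With 1 mouse left out it ran from -0.39 to -0.18. It was called only with library weights, at -0.43 (adjusted p = 0.0317). Itga6, the laminin receptor chain shared with endothelium and epithelia, had 6.18, 18.2 and 10.4 FPKM in DMSO+Sham and 13.5, 12.8 and 9.55 FPKM in DMSO+AB. The highest value of all 12 mice was that of DMSO+Sham mouse 2. The difference was 0.14 ± 0.28 (adjusted p = 0.814), without that mouse it was 0.50, and it turned to -0.21 without DMSO+Sham mouse 1 and to -0.20 with the number series.

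Among the collagen receptors, Itga1 read 3.61, 3.73 and 4.89 FPKM in DMSO+Sham and 4.60, 4.74 and 2.70 FPKM in DMSO+AB. These groups overlapped and the difference was -0.04 ± 0.19. Itga11, a receptor chain of fibroblasts for fibrillar collagen, read 0.29, 0.76 and 0.11 FPKM in DMSO+Sham and 0.59, 2.07 and 1.84 FPKM in DMSO+AB. Banded mice 2 and 3 were above all sham mice and mouse 1 was within their range. The means were 0.39 and 1.5 FPKM, a ratio of 3.88. In the fit without the filter the difference was 0.82 ± 0.24 (adjusted p = 0.12).

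The beta chains did not separate the groups. Itgb1 had 89.2, 106 and 110 FPKM in the DMSO+Sham mice and 119, 123 and 80.6 FPKM in the DMSO+AB mice. Banded mouse 3 was the lowest of all 12 and banded mouse 2 the highest. The difference was 0.06 ± 0.15 with a 95% interval of -0.27 to 0.39. Itgb5 read 46.8, 39.0 and 63.3 FPKM in DMSO+Sham and 34.8, 62.7 and 69.2 FPKM in DMSO+AB, with a difference of 0.13 ± 0.23.

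The banding comparison in the hispidulin arm, Hispidulin+AB against Hispidulin+Sham, called 0 of 11664 genes (0.0%), and 847 had an unadjusted p under 0.05. A replicate block raised the count to 17 genes, none of them an integrin tested here. Library weights raised it to 209 genes, with 1 integrin, Itga5 (adjusted p = 0.036 by limma). Itga5 had the largest difference among the integrins. It was 19.9, 17.6 and 25.9 FPKM in the Hispidulin+Sham mice and 45.8, 28.5 and 56.7 FPKM in the Hispidulin+AB mice. All banded mice were above all sham mice, and the difference was 0.98 ± 0.29 (SE, adjusted p = 0.482 by limma, unadjusted p = 0.00593). Itga9 was 14.9, 14.9 and 15.3 FPKM against 19.0, 21.5 and 23.1 FPKM, again without overlap, and differed by 0.46 ± 0.22 (adjusted p = 0.69). Itga6 went from 6.80, 7.78 and 9.25 FPKM to 9.71, 9.50 and 12.1 FPKM and differed by 0.36 ± 0.28 (adjusted p = 0.874). These 3 of the 8 tested integrins had groups without overlap, against 20.9% of all genes tested. Itga11, outside the filter, was 0.48, 0.44 and 0.49 FPKM against 0.55, 0.99 and 0.96 FPKM, also without overlap.

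The remaining integrins overlapped between the groups of this arm. Itga7 read 52.5, 48.7 and 41.7 FPKM in Hispidulin+Sham and 43.3, 44.9 and 41.3 FPKM in Hispidulin+AB, a difference of -0.13 ± 0.12 (adjusted p = 0.896). Itgb1 read 92.1, 98.6 and 113 FPKM and then 111, 115 and 119 FPKM, a difference of 0.18 ± 0.15. Sham mouse 3 of this arm, with the lowest Itga7 and the highest Itgb1 of its group, lay within the range of the banded mice for both. Itgb5 was 39.4, 44.7 and 36.3 FPKM against 39.4, 47.3 and 41.3 FPKM, a difference of 0.09 ± 0.23. Itga1 was 3.46, 4.59 and 4.18 FPKM against 4.29, 3.66 and 5.79 FPKM, and Itgav was 2.68, 3.17 and 4.19 FPKM against 2.75, 3.40 and 3.25 FPKM, with differences of 0.12 ± 0.19 and -0.06 ± 0.14.

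Averaged over both drug arms in the same model, 6 banded against 6 sham mice, the AB effect called 2 of the 8 integrins, against 7.39% of all genes tested. This contrast was chosen after seeing the data. Itga9 was higher by 0.87 (adjusted p = 0.00846 by limma) and Itga5 by 0.90 (adjusted p = 0.0235). The other 6 were not called. Without DMSO+Sham mouse 3 both kept the call, at 0.72 and 1.02 (adjusted p = 0.0029 and 0.00975), and without the mice with raised atrial markers neither did, at 0.85 and 0.95 (adjusted p = 0.122 and 0.114).

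**Figure D2:**
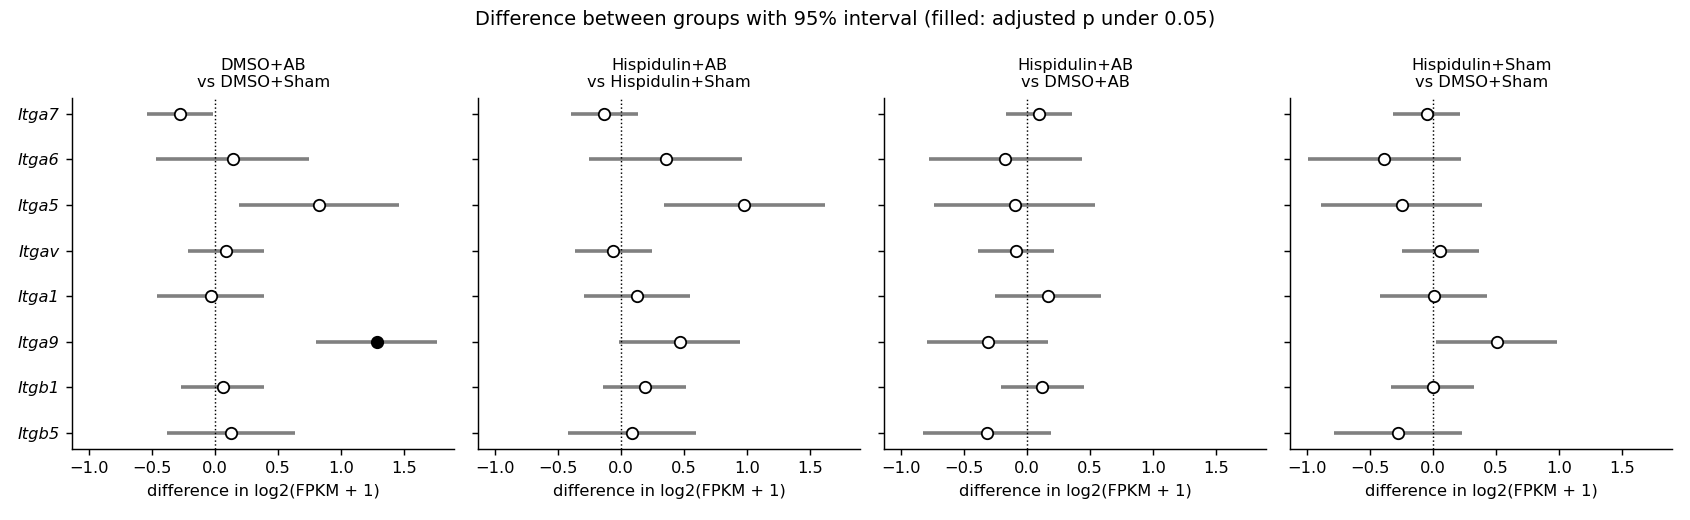
Difference in log2(FPKM + 1) between groups (horizontal axis) for the 8 integrins that passed the filter, with 95% intervals from limma, in 4 comparisons of 3 mice with 3. Only Itga9 in DMSO+AB against DMSO+Sham (1.28) is filled, for an adjusted p under 0.05.

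The next question was whether hispidulin altered the integrins of banded hearts. In Hispidulin+AB against DMSO+AB, 0 of 11664 genes were called (0.0%), with 362 at an unadjusted p under 0.05, and none of the integrins was called. Itga9 was the only one of the 8 whose groups did not overlap, against 7.88% of all genes: it was 19.0, 21.5 and 23.1 FPKM with hispidulin, all below the 23.4, 25.9 and 30.6 FPKM with DMSO. The highest hispidulin mouse and the lowest DMSO mouse lay close together, and the difference of -0.31 ± 0.22 (SE) had a 95% interval of -0.79 to 0.17 (adjusted p = 0.996). Itgb5 read 39.4, 47.3 and 41.3 FPKM with hispidulin and 34.8, 62.7 and 69.2 FPKM with DMSO, a difference of -0.32 ± 0.23 (adjusted p = 0.996). The hispidulin mice were within the wide range of the DMSO mice, and the difference was -0.62 without DMSO+AB mouse 1 and -0.13 without DMSO+AB mouse 3. The 95% intervals were -0.74 to 0.54 for Itga5, -0.17 to 0.36 for Itga7 and -0.21 to 0.45 for Itgb1, and changes of either sign within them were compatible with the values of these 3 mice a group. Itga11 averaged 0.83 ± 0.25 FPKM with hispidulin and 1.5 ± 0.80 with DMSO, and the groups overlapped.

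In the sham hearts, Hispidulin+Sham against DMSO+Sham, 0 genes were called (0.0%), with 287 at an unadjusted p under 0.05, and 0 of the 8 integrins had groups without overlap, against 5.6% of all genes. Itga9 was 15.0 ± 0.24 FPKM with hispidulin and 10.9 ± 4.41 with DMSO. The 3 hispidulin mice were almost equal, whereas the DMSO mice ran from 6.44 to 15.3. The difference was 0.50 ± 0.22 (unadjusted p = 0.0412, adjusted p = 1.0), and without DMSO+Sham mouse 3 it was 0.20. The interaction of hispidulin and AB, which asks whether the banding effect differed between the drug arms, called 0 genes (0.0%), with 289 at an unadjusted p under 0.05. For Itga9 it was -0.82 ± 0.31 (unadjusted p = 0.0222, adjusted p = 1.0), so a different size of the Itga9 difference in the 2 arms did not pass the test. Without DMSO+Sham mouse 3 it was -0.51 (adjusted p = 1.0), and with any other mouse left out it ran from -1.08 to -0.72. The comparisons above share groups with each other and are not independent.

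The make-up of the alpha chains was also taken within each heart. Within the sum of the 8 alpha transcripts, which FPKM allows because it is scaled to length, the laminin-binding chains Itga7 and Itga6 together held 60.8%, 59.0% and 53.1% in the DMSO+Sham mice and 58.5%, 57.7% and 50.1% in the Hispidulin+Sham mice. They held 34.9%, 39.7% and 42.3% in the DMSO+AB mice and 42.1%, 48.0% and 37.1% in the Hispidulin+AB mice. All 6 banded hearts were thus below all 6 sham hearts. The RGD-binding chains Itga5, Itgav and Itga8, named for the peptide motif they recognise, held 27.9% ± 7.22 (SD, n = 3) of the sum in DMSO+Sham hearts and 25.1% ± 4.55 with hispidulin. After AB they held 37.0% ± 8.04 with DMSO and 36.7% ± 6.92 with hispidulin. Here the banded range of 28.9% to 46.2% overlapped the sham range of 22.0% to 36.2%. Itga9 held 10.3% ± 3.86 in DMSO+Sham (6.0% to 13.5%, the lowest in mouse 3) and 19.9% ± 3.84 in DMSO+AB. With hispidulin it held 15.0% ± 0.25 in sham hearts (14.7% to 15.2%) and 16.7% ± 2.01 in banded hearts (15.0% to 18.9%), with overlapping values. The summed alpha level was 106 ± 7.92 FPKM in DMSO+Sham (97.3 to 113) and ran from 97.8 to 102 FPKM in Hispidulin+Sham. It was 136 ± 15.0 FPKM in DMSO+AB and 128 ± 15.6 FPKM in Hispidulin+AB. Shares of 1 sum are tied to each other, and the lower laminin-binding share in banded hearts went with a larger sum and with a mean Itga7 level of 40.7 against 49.3 FPKM. No test was run on the shares.

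**Figure D3:**
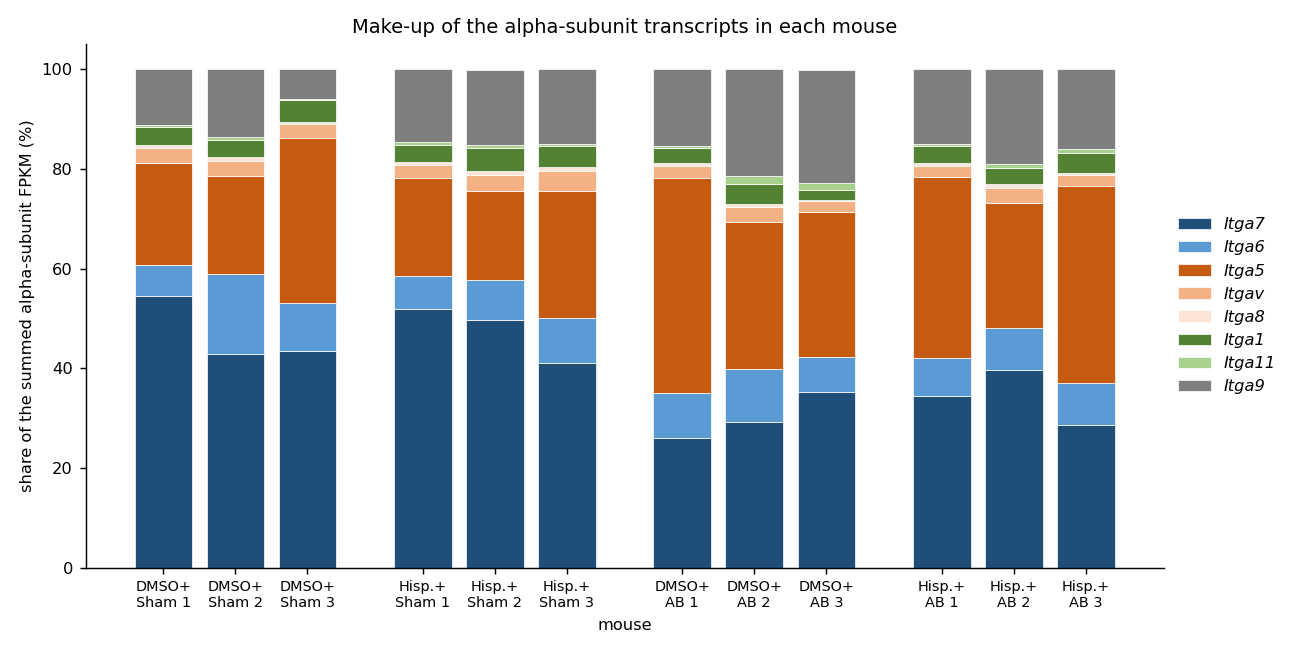
Share of each alpha transcript in the summed FPKM of the 8 alpha chains (vertical axis, percent), with 1 stacked bar per mouse. The blue segments, Itga7 and Itga6, together reach 50.1% to 60.8% in the sham mice and 34.9% to 48.0% in the banded mice.

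The ratio of the fibronectin receptor chain Itga5 to the laminin receptor chain Itga7 was taken within each heart. It was 0.38, 0.46 and 0.76 in DMSO+Sham and 0.38, 0.36 and 0.62 in Hispidulin+Sham. In the banded hearts it was 1.67, 1.01 and 0.82 with DMSO and 1.06, 0.64 and 1.37 with hispidulin. Itga5 was the more abundant of the pair in 4 of the 6 banded hearts and in none of the 6 sham hearts, and the lowest banded value lay below the highest sham value. The ratio of the summed alpha chains to Itgb1 was 1.04 ± 0.06 in DMSO+Sham and 1.31 ± 0.35 in DMSO+AB, with overlapping values.

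The genes around the integrins were counted from lists of their partners. Of 17 other integrin subunits, 5 passed the filter and none was called in any comparison. Only Itgam reached a group mean of 5 FPKM, in DMSO+Sham (7.16 ± 9.58), and this rested on mouse 3, since the other sham mice of that group had 1.79 and 1.48 FPKM. The leukocyte marker sum was 218 FPKM in the highest DMSO+Sham mouse, mouse 3, and 239 in the highest DMSO+AB mouse. Most of these sums was Lyz2 (180 and 208 FPKM). DMSO+Sham mouse 3 had the most Adgre1 (11.1 FPKM, at most 5.65 elsewhere) and Ptprc (3.79, at most 2.23 elsewhere). It did not have the most Lyz2, Cd68 or Csf1r. The part of leukocytes in the integrin results was not tested.

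Of 32 genes of the adhesion complex that links integrins to actin, 30 were tested. In DMSO+AB against DMSO+Sham 22 had a positive and 8 a negative difference, with a median of 0.21 against -0.04 over all genes. Of the 30, 1 was called (3.33%), beside 5.21% of all genes tested, and the difference between these shares was not tested. This was Parvb (beta-parvin, a partner of integrin-linked kinase), at 36.4, 42.2 and 37.3 FPKM in DMSO+Sham and 48.0, 48.7 and 57.0 FPKM in DMSO+AB, a rise of 0.40 ± 0.10 (SE, adjusted p = 0.0416 by limma). The difference was 0.32 to 0.46 with 1 mouse left out, and the call held only without DMSO+Sham mouse 2 (adjusted p = 0.0226) or DMSO+AB mouse 1 (adjusted p = 0.0333), while the adjusted p was 0.0858 to 0.15 without any of the other 4 mice of these groups. It was also lost without the mice with raised atrial markers (adjusted p = 0.206), with the replicate block (0.40, adjusted p = 0.0564), with the number series (adjusted p = 0.112) and with only the libraries compared (adjusted p = 0.261). The list had 4 genes called higher and 1 lower without DMSO+Sham mouse 2 (beside 9.03% of all genes), 2 higher without DMSO+AB mouse 1 (8.18%) and 2 higher with the replicate block (5.49%). Library weights gave 6 higher and 1 lower (12.2%). Averaged over both drug arms, 3 genes of the list were called higher and 1 lower, beside 7.39% of all genes. Without DMSO+Sham mouse 3 this contrast gave 4 higher and 0 lower (9.63%). Without the mice with raised atrial markers it gave 0 calls in the list (0.634%). No gene of the list was called in the hispidulin comparisons, the hispidulin arm or the interaction.

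Most of the calls around the integrins were among their ligands. Of 29 matrix genes whose products integrins bind, 28 were tested, and 12 were called higher and 1 lower in DMSO+AB, with a median difference of 0.82. This is 46.4% of the list, against 5.21% of all genes tested. The count and the share include Tnc, whose call is not used as a test, as explained below. The list was chosen with earlier results of these data known, so the share is a description. The count moved with single mice, as did the share of all genes called. It was 15 higher and 1 lower without DMSO+Sham mouse 2 (beside 9.03% of all genes) or without DMSO+AB mouse 1 (8.18%). In turn, 4 were called higher and 1 lower without DMSO+Sham mouse 3 (4.24%). Only 1 was called higher without DMSO+Sham mouse 1 (0.78%) or without DMSO+AB mouse 3 (1.64%). The count was 0 without DMSO+AB mouse 2 (0.832%) or without all mice with raised atrial markers (0.171%). It was 14 higher and 1 lower with the replicate block (5.49%) and 17 and 1 with library weights (12.2%). It was 5 and 0 without the filter (1.98%), 1 and 0 with the number series (1.22%), and 0 in the fit to the 6 libraries compared (0.0943%). The median was 0.61 to 0.82 in the fits without 1 or more mice. In the hispidulin arm AB gave 0 calls among the 28, with 23 positive and 5 negative differences and a median of 0.42. The AB effect averaged over both arms gave 15 called higher, Tnc among them, and 0 lower, beside 7.39% of all genes. Without DMSO+Sham mouse 3 this contrast gave 13 higher and 1 lower (9.63%). Without the mice with raised atrial markers it gave 0 calls in the list (0.634%). In the DMSO arm Postn (periostin) rose most, from 6.03, 10.5 and 3.82 FPKM in DMSO+Sham to 23.4, 184 and 50.9 FPKM in DMSO+AB, a difference of 3.08 ± 0.62 (adjusted p = 0.0197). Every banded mouse was above every sham mouse, and mouse 2 was far above the others. Col1a1 and Col1a2, the chains of collagen I, rose by 1.86 ± 0.46 and 1.60 ± 0.41 (adjusted p = 0.0407 and 0.0464), and Ccn2, a matricellular protein, rose by 1.81 ± 0.30 (adjusted p = 0.0106). Fn1, picked after its values were seen because its product is a ligand of Itga5 and Itga9, rose by 0.98 ± 0.22 (adjusted p = 0.0269). Without DMSO+Sham mouse 3, Postn (2.78, adjusted p = 0.0427) and Ccn2 (2.14, adjusted p = 0.00662) kept the call, and Col1a1, Col1a2 and Fn1 did not (1.57, 1.29 and 0.96, adjusted p = 0.0948, 0.11 and 0.0527). All of these kept the call without DMSO+Sham mouse 2 and lost it without the mice with raised atrial markers. Tnc, another ligand gene of Itga9 named after its values were seen, was low, at 0.08, 0.25 and 0.10 FPKM in the DMSO+Sham mice and 0.99 to 1.25 FPKM in the DMSO+AB mice. It passed the filter only through banded mice, so its call, 1 of the 12, was conditioned on the group in which it was high and is not used as a test. The gene that fell, also named after its values were seen, was the laminin chain Lama5. It fell by 1.04 ± 0.22 on the log2 scale (adjusted p = 0.022), with 22.9, 14.7 and 31.5 FPKM in DMSO+Sham and 11.3, 8.70 and 10.8 FPKM in DMSO+AB. Without DMSO+Sham mouse 3, the highest of all 12, it fell by 0.79 (adjusted p = 0.0385), and without the mice with raised atrial markers the difference was -0.93 (adjusted p = 0.183). It fell by 1.31 without DMSO+Sham mouse 2 (adjusted p = 0.00276). In the hispidulin arm Lama5 differed by -0.04 ± 0.22 after AB (adjusted p = 0.986), and Hispidulin+Sham differed from DMSO+Sham by -0.64 ± 0.22 (unadjusted p = 0.0119, adjusted p = 1.0). Its interaction was 1.0 ± 0.31 (unadjusted p = 0.00679, adjusted p = 1.0). In Hispidulin+AB against DMSO+AB none of the 28 ligands was called, with 8 positive and 20 negative differences and a median of -0.18.

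**Figure D4:**
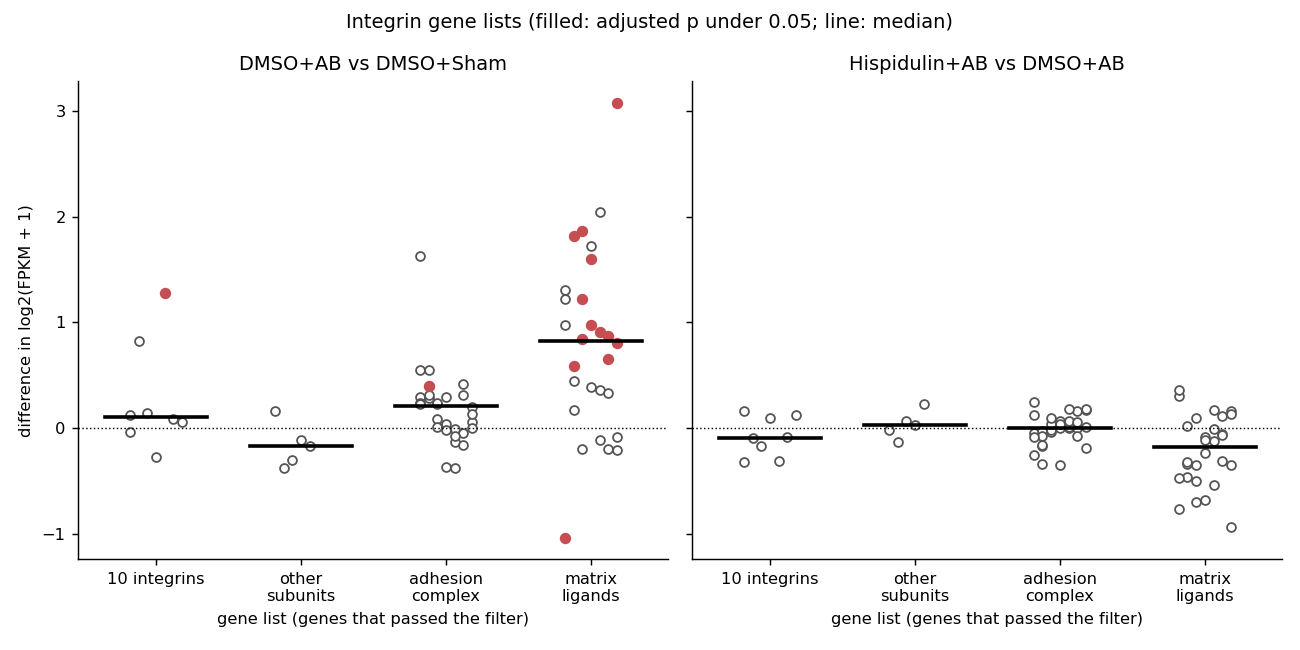
Difference in log2(FPKM + 1) (vertical axis) of every tested gene in 4 lists, after AB in the DMSO arm (left) and with hispidulin in banded hearts (right), with filled points for an adjusted p under 0.05 and a line at the median. The matrix ligands lie highest on the left (median 0.82, 13 filled, Tnc among them), and no point is filled on the right.

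Marker genes of the cell types present were counted in DMSO+AB against DMSO+Sham, in which 5.21% of all genes tested were called. The fibroblast markers summed to 311 to 381 FPKM in DMSO+Sham and 322 to 610 FPKM in DMSO+AB, with 1 of 5 called higher, Col1a1. This gene is also in the ligand list. All 5 had positive differences, 4 of them with an unadjusted p under 0.05 by limma. Their median was 0.55 against -0.04 over all genes. Dcn alone read 262 to 470 FPKM in DMSO+AB and made up most of the sum. The cardiomyocyte markers summed to 24240 to 38180 FPKM and 31820 to 35300 FPKM, with 1 of 5 called lower, the calcium channel gene Ryr2. Endothelial markers summed to 266 to 282 FPKM and 304 to 330 FPKM, smooth muscle and pericyte markers to 178 to 194 FPKM and 140 to 206 FPKM, and none of these 10 genes was called. Leukocyte (5 genes), red blood cell (3 genes) and nerve markers (1 gene tested) had no call. The atrial markers summed to 90.3 to 309 FPKM and 683 to 6215 FPKM, and 1 of 4, the natriuretic peptide gene Nppa, was called higher. Nppa made up most of the sum in DMSO+AB, at 680 to 6043 FPKM. The other 3, Myl7, Myl4 and Sln, had negative differences, and the median of the 4 was -0.28. The calls of Col1a1, Ryr2 and Nppa were kept without DMSO+Sham mouse 2. In that fit 1 more cardiomyocyte, 1 more fibroblast and 1 smooth muscle and pericyte gene were called higher, beside 9.03% of all genes. The calls of Col1a1 and Ryr2 were lost without DMSO+Sham mouse 3 (adjusted p = 0.0948 and 0.0729) and that of Nppa was kept (adjusted p = 0.0255), and all 3 were lost without the mice with raised atrial markers. The part of these cells in the rise of Itga9 was not tested.

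The genes whose pattern over the 12 mice was most like that of 3 integrins were found by Pearson correlation of log2(FPKM + 1), as a description. All values of a mouse share 1 library, and the group differences are part of the pattern. Itga9 was most like Tmem132a (r = 0.96), Homer2 (r = 0.96), a scaffold protein of calcium signalling, and Mfge8 (r = 0.96), a secreted integrin ligand, and the correlations were 0.82, 0.88 and 0.81 after group means were removed. Mfge8 was 88.6, 89.8 and 71.6 FPKM in DMSO+Sham and 109, 107 and 131 FPKM in DMSO+AB, so the mouse with the lowest and the mouse with the highest Itga9 were also those with the lowest and the highest Mfge8. Itgb1 was most like Tmod3 (tropomodulin, an actin-capping protein, r = 0.97), Purb (r = 0.96) and Pls3 (r = 0.95). Itga7 was most like Pygm, the muscle glycogen phosphorylase (r = 0.97), Ccdc85c (r = 0.95) and Clpp (a mitochondrial protease, r = 0.94).

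Itga7 and Itgb1, which form 1 receptor in muscle, ran in opposite directions between mice. Their correlation was -0.79 over the 12 mice and -0.93 after group means were removed, the most negative of all pairs of the tested integrins. In DMSO+AB, mouse 3 had the highest Itga7 (47.4 FPKM) and the lowest Itgb1 (80.6 FPKM) of its group, and mouse 2 the reverse (35.3 and 123 FPKM). In DMSO+Sham, mouse 1 likewise had the highest Itga7 and the lowest Itgb1. Itga1 and Itgb1 ran together (r = 0.78). Itga11 ran with Col1a2 (r = 0.98), a pair looked at after seeing the data.

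**Figure D5:**
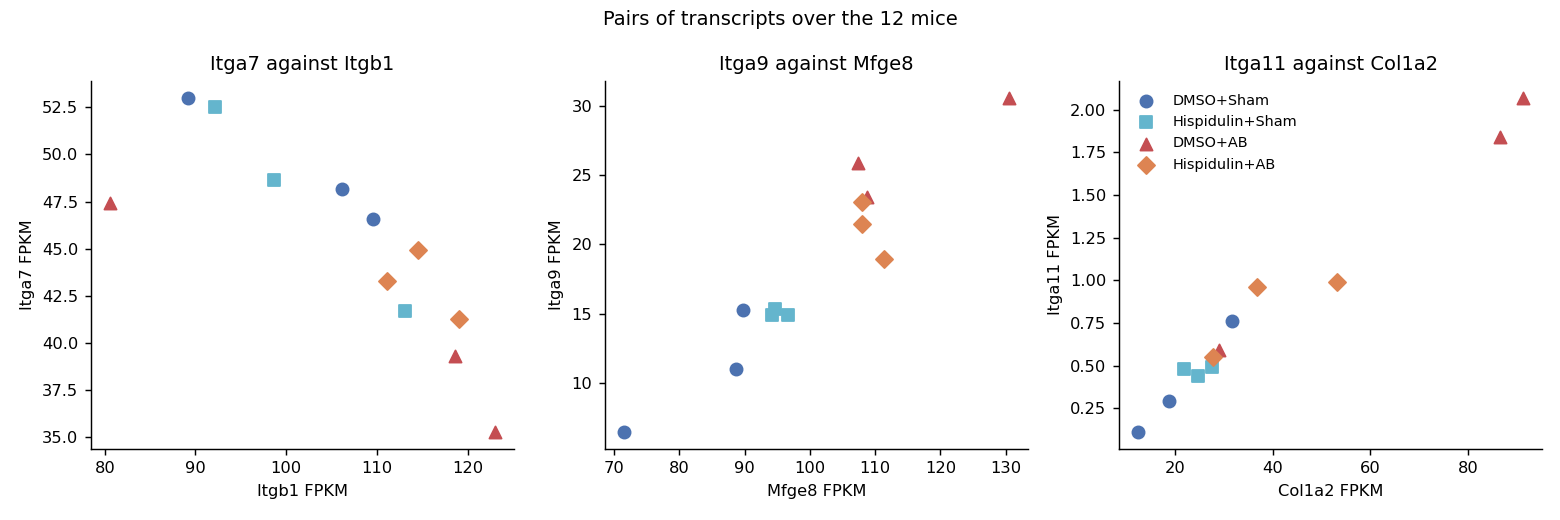
FPKM of pairs of transcripts over the 12 mice, with 1 point per mouse, for Itga7 against Itgb1, Itga9 against Mfge8 and Itga11 against Col1a2 (linear axes that do not start at 0). Itga7 falls as Itgb1 rises (r = -0.79 on the log2 scale), and the other pairs rise together.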

How the data were processed

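RNA of the left ventricle of 12 mice was sequenced. The authors deposited FPKM for 18079 genes in 1 table, to a precision of 0.01, keyed by NCBI Gene numbers. The submitters' processing notes name HISAT2 2.0.4, Bowtie2 2.2.5 and RSEM 1.2.12, and the genome build was not given in the sources used here. FPKM from RSEM are estimates, so reads that several genes share were divided by model. Symbols were matched for 17947 genes (99.3%), and groups came from the sample titles.

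FPKM were used as deposited. After adding 1, log2 values of genes reaching an FPKM of 1 in 3 or more libraries were fitted with limma 3.58.1 in R 4.3.3 (1 mean per group, all 12 libraries, trended eBayes, two-sided). p-values were adjusted by Benjamini-Hochberg over the 11664 genes, with a threshold of 0.05, and intervals are at 95%. The fit was tested on simulated data. Group means, shares, ratios and correlations were computed in Python 3.11.15. Promoters were read from a RefSeq table, in which 8 of the 10 genes were found. All 10 integrins are described in each mouse. Other integrin subunits are named if called or at a mean of at least 5 FPKM in a group, and of the other lists up to 4 called genes with the largest difference after AB. The nearest genes are given by the rule for Itga9, Itgb1 and Itga7. The integrins and all lists were chosen with earlier results of these data known.

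Same-numbered replicates are different mice, and the labels do not pair them. Residuals of same-numbered mice correlated above 0.1 in all 3 pairs of Hispidulin+Sham against DMSO+Sham (0.126 to 0.33) and of Hispidulin+AB against Hispidulin+Sham (0.147 to 0.228). They did not in all pairs of DMSO+AB against DMSO+Sham (-0.198 to -0.0239) or Hispidulin+AB against DMSO+AB (-0.183 to 0.3). Whether the numbers pair the mice is thus not known. The main values of all comparisons are from the fit without a block, and the replicate block is given as an alternative. Alternatives were 0.1 in place of 1, no filter, median-of-ratios scaling, the replicate block, the animal-number series as a covariate, library weights, only the libraries compared, omission of the mice with raised atrial markers or of each replicate in turn, and, chosen after seeing the data, the AB effect averaged over both drug arms and the calls of the gene lists without the mice that stood apart.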

Additional observations from a re-analysis of the deposited data

How the results depend on the processing

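For the 8 tested integrins, 40 differences (5 comparisons each) were computed under every alternative, which gave 608 values. Of these, 544 kept their direction and their side of the threshold, 2 lost a call, 3 gained one and 59 changed sign, all of the last for differences that were not called. The cause was not tested.

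The 608 genes called in DMSO+AB against DMSO+Sham became 358 without the filter, 142 with the number series, 1423 with library weights, 20 without the mice with raised atrial markers and 11 with only the 6 libraries compared, the last pair with fewer samples in the fit. Leaving out 1 mouse gave 91 to 1053 genes: 91 without DMSO+Sham 1, 1053 without DMSO+Sham 2, 954 without DMSO+AB 1, 97 without DMSO+AB 2 and 191 without DMSO+AB 3. The replicate block gave 640 genes. The 1 called integrin, Itga9, was called in all 6 fits that left out a mouse (0.98 to 1.54). The count of integrins was 2 with library weights (Itga7 at -0.43 was added), 0 without the mice with raised atrial markers, 0 with only the libraries compared and 2 averaged over both arms (Itga5 added). In Hispidulin+AB against DMSO+AB 2 genes were called without the filter and 0 to 20 when 1 mouse was left out (20 without DMSO+AB 1). In Hispidulin+AB against Hispidulin+Sham 2 were called without the filter, 2 with median-of-ratios scaling, 17 with the replicate block, 209 with library weights (1 integrin, Itga5), 49 with only the libraries compared and 0 to 3 with 1 mouse left out (3 without Hispidulin+AB 2). The interaction gave 0 to 3 (3 without DMSO+AB 1). The replicate block changed no call of an integrin, and among the genes named from the other lists it ended that of Parvb (adjusted p = 0.0564).

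These differences changed sign. In DMSO+AB against DMSO+Sham they were Itga6 at -0.20 and Itgb1 at -0.0651 with the number series, Itgb1 at -0.0494 without the mice with raised atrial markers, and Itga1 at 0.16 with library weights and 0.0439 averaged over both arms. With 1 mouse left out the ranges were -0.15 to 0.17 for Itga1, -0.21 to 0.50 for Itga6, -0.0494 to 0.25 for Itgb1 and -0.0596 to 0.43 for Itgb5. In Hispidulin+AB against DMSO+AB the ranges with 1 mouse left out were -0.0409 to 0.29 for Itga1, -0.31 to 0.17 for Itga5, -0.000703 to 0.21 for Itga7 and -0.0725 to 0.23 for Itgb1. In Hispidulin+Sham against DMSO+Sham, without the mice with raised atrial markers, Itgav was -0.0785, Itga1 -0.015 and Itga7 0.0386. Itga6 was 0.045 and Itgb1 0.0957 with library weights, Itga1 -0.0422 with the number series and Itgb1 0.0041 with median-of-ratios scaling. The ranges with 1 mouse left out were -0.07 to 0.11 for Itga1, -0.13 to 0.0386 for Itga7, -0.0785 to 0.17 for Itgav and -0.0949 to 0.0607 for Itgb1. In Hispidulin+AB against Hispidulin+Sham, Itgav was 0.0523 and Itga1 -0.0082 without the mice with raised atrial markers, and the ranges with 1 mouse left out were -0.0258 to 0.25 for Itga1 and -0.17 to 0.0741 for Itgav. In the interaction, library weights gave -0.30 for Itga6, -0.071 for Itga1 and -0.0869 for Itgb1. Without the mice with raised atrial markers it was -0.0079 for Itga7, 0.0293 for Itgb5 and -0.0742 for Itga5. The ranges with 1 mouse left out were -0.0436 to 0.28 for Itga1, -0.0936 to 0.42 for Itga5, -0.15 to 0.56 for Itga6, -0.068 to 0.23 for Itgb1 and -0.34 to 0.15 for Itgb5.

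The limits are 3 mice a group, an unknown depth, and integrins near or below 1 FPKM (Itga8 and Itga11) that were tested only in the fit without the filter.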

Other observations

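Patterns of 4 further integrins were compared with those of the other genes, chosen after seeing the data, by Pearson correlation of log2(FPKM + 1) over the 12 mice. Itga11 was most like P3h3, a collagen prolyl hydroxylase (r = 0.99), Col1a2 (r = 0.98) and Ssc5d (r = 0.98). Col1a2 was 29.1, 91.3 and 86.5 FPKM in the DMSO+AB mice and 27.8, 53.2 and 36.8 FPKM in the Hispidulin+AB mice, so the banded mouse of each arm with the lowest Itga11, mouse 1, also had the lowest Col1a2. After group means were removed the correlation with Col1a2 was 0.97.

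Itga5 was most like Sphk1, a kinase that makes sphingosine 1-phosphate (r = 0.98), Srm and Zfp623 (both r = 0.96). Sphk1 was 13.6, 4.32 and 4.26 FPKM in DMSO+AB and 9.83, 2.40 and 10.3 FPKM in Hispidulin+AB, which set apart the same 3 banded mice that had the highest Itga5 (65.5, 45.8 and 56.7 FPKM). DMSO+Sham mouse 3, the sham mouse with the highest Itga5, also had the highest sham Sphk1, at 4.50 FPKM. Flnc, the muscle filamin of the adhesion complex, was 315 FPKM in DMSO+AB mouse 1 and 217 and 324 FPKM in Hispidulin+AB mice 1 and 3, against 93.3 to 153 FPKM in the other banded mice. Its difference in DMSO+AB against DMSO+Sham was 1.63 ± 0.48 (SE) and was not called (adjusted p = 0.0714 by limma).

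Itga6 was most like the early-response gene Nr4a1 (r = 0.95), Bcl6b (r = 0.95) and Ywhaz (r = 0.92). In DMSO+Sham mouse 2, which had the highest Itga6, Nr4a1 was 27.4 FPKM, against 2.82 to 12.4 FPKM in the other mice. Itgb5 was most like Slc25a1 (r = 0.94), Dapk3 and Flot1 (both r = 0.94). All values of a mouse come from 1 library, and these correlations are descriptions without a test.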
